A study of Lobaria pulmonaria with 11 samples.

Results

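The late response of the fungal partner of the lichen Lobaria pulmonaria to ultraviolet-B (UV-B) radiation was measured by setting 3 libraries of day 11 against 3 libraries of day 0. These are 6 of the 11 libraries of the series, chosen by the day on their labels, and the values described are the counts of all mycobiont transcripts. The day 11 thalli had been irradiated daily at 3 W/m2 for 80 min, or 14.4 kJ/m2 per day, in a course planned for 14 days, and had received 158.4 kJ/m2 in all. The day 0 thalli were sampled before irradiation, at 0 kJ/m2. All thalli grew on aspens in the wild and were air dried, stored frozen, rehydrated and kept wet in a climate chamber at 15 °C, with the irradiation itself done at room temperature. The series has no library of unirradiated thalli of day 11, and the effects of the dose and of 11 days of wet keeping cannot be told apart. Polyadenylated RNA was sequenced from each thallus sample as a directional single-end library. The series describes its libraries as biological replicates. How many thalli went into a library is not given in the sources used here.

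A lichen thallus is built by a fungus, the mycobiont, whose hyphae form the outer cortex and enclose the photosynthetic partners, here a green alga and a cyanobacterium. UV-B damages DNA, protein and membranes, and cells answer it with DNA repair, antioxidant enzymes and chaperones. Lobaria pulmonaria is known to darken its upper cortex with melanin under UV-B, which screens the layers below. The transcripts carry numeric IDs that the deposited files do not pair with gene names, so that no transcript can be assigned to one of these processes here and no marker gene of the fungus could be looked up. An ID is printed for 2 rising and 2 falling transcripts, and the others are given by rank and by group.

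Counts were given for 15607 fungal transcripts. None of the 11 libraries had a count for 827 of them, and the 6 libraries compared had none for 1010. The libraries held 11128297, 8680745 and 10636359 mycobiont counts at day 11 and 12725838, 14909202 and 8848573 at day 0. Of the reads kept after trimming, 74.7% to 77.0% mapped to the mycobiont genome at day 11 and 71.1% to 81.0% at day 0. Unmapped reads made up 14.7%, 16.3% and 11.7% of the kept reads at day 11 and 10.9%, 11.0% and 14.0% at day 0, ranges that overlap (exact permutation p = 0.2, two-sided, n = 3 each). The part of the unmapped reads in the results below was not tested.

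By day 11 the fungal transcriptome had changed widely in both directions. Of 12089 transcripts tested, 3504 (29.0%) differed from day 0, with 1835 (15.2%) higher and 1669 (13.8%) lower, by the quasi-likelihood F test of edgeR at a Benjamini-Hochberg adjusted p under 0.05. The median log2 fold change was -1.58 for the lower calls, against 1.00 for the higher calls and -0.02 for all transcripts tested. The median standard error was 0.36 for the lower calls and 0.23 for the higher calls. A less precise transcript needs a larger change to be called, and the part of this in the difference was not tested. Fitted changes of at least 2-fold were found in 920 of those called higher and 1312 of those called lower, and changes of at least 4-fold in 378 and 562. At 16-fold or more the order was the other way, with 117 rises and 59 falls. In bulk RNA, fewer cells of a kind and less RNA per cell cannot be told apart, and this holds for every fall described here.

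The balance of rises and falls depended on how the libraries were scaled. Levels were scaled by the trimmed mean of M-values (TMM), with factors of 0.862 to 0.946 at day 11 and 1.16 to 1.27 at day 0. With library totals instead, the median log2 fold change over everything tested moved to -0.47. The test then called 4250 transcripts, 723 higher and 3527 lower, so that higher ones made up 17.0% of the calls instead of 52.4%. Those 723 were all among the 1835, and all 1669 lower transcripts were again called lower. The count of calls fell to 2255 without day 0 replicate 2 and to 2304 without day 0 replicate 3.

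A stricter test asked which changes exceeded 2-fold, in place of differing from none. It called 596 transcripts (4.93%), 268 higher (2.22%) and 328 lower (2.71%), by edgeR's test against a fold change of 2 with Benjamini-Hochberg adjustment. The 268 had a median of 3.12 on the log2 scale and the 328 a median of -2.80. With library totals 183 of the 268 and all 328 were called again, and higher ones made up 19.7% of 928 calls instead of 45.0%. Single libraries also moved this count. Leaving out day 0 replicate 1 gave 367, day 0 replicate 2 gave 318 and day 0 replicate 3 gave 335. Leaving out day 11 replicate 1 gave 303 and day 11 replicate 2 gave 362. The excess of falls over rises turned round in 4 alternatives. DESeq2 called 298 higher and 266 lower, and leaving out day 11 replicates gave 162 and 141 without replicate 1, 204 and 158 without replicate 2, and 271 and 260 without replicate 3. At the other end, the 95% interval of the log2 fold change lay wholly within 2-fold in either direction for 4098 transcripts (33.9%). These included 302 transcripts called higher and 43 called lower, which passed the test with a change under 2-fold. Among the 8585 transcripts not called, 3753 had such an interval, and for the remainder the data allow a change of 2-fold or more, or gave no interval in 8 cases.

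**Figure D1:**
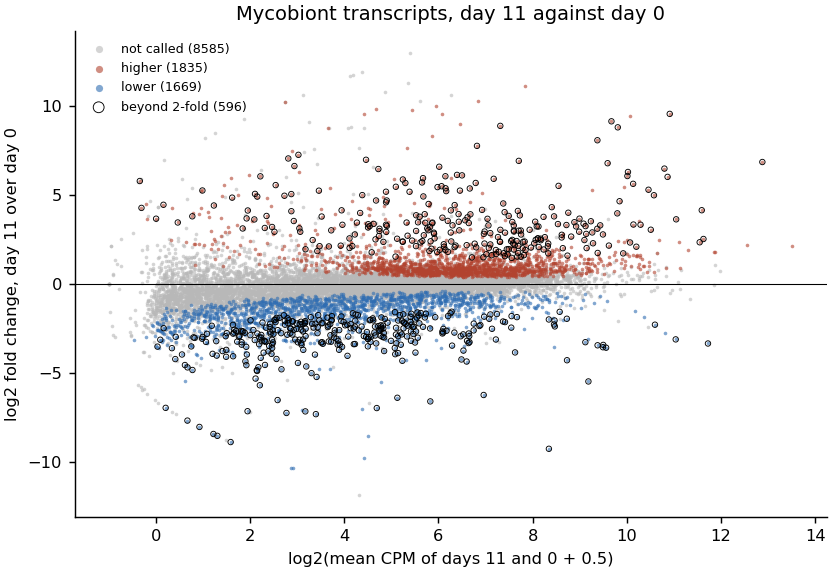
Log2 fold change of day 11 over day 0 (vertical axis) against the mean level of the 6 libraries on a log2 scale (horizontal axis), with 1 point per tested transcript. Red points mark the 1835 called higher, blue points the 1669 called lower, grey points the 8585 not called, and black circles the 596 that changed by more than 2-fold.

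The calls also describe how the fungal RNA was divided. Shares of counts are not divided by transcript length, which the files do not give, so that they say how much of the sequenced RNA a transcript took and not how many molecules it had. The 1835 transcripts called higher held 47.4%, 46.3% and 41.7% of the mycobiont counts at day 11, against 22.5%, 21.4% and 21.0% at day 0. The 1669 called lower held 3.22%, 3.53% and 4.37% at day 11, against 14.7%, 14.6% and 15.1% at day 0. The libraries of the days lie far apart in both groups. These sums describe the groups and test nothing, since the same libraries chose the transcripts. On the days between, the higher group held a mean of 33.8% at day 2 (SD 3.12, n = 3) and 41.9% at day 7 (SD 0.556, n = 2), and the lower group 9.65% (SD 1.66) and 4.39% (SD 0.233).

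**Figure D2:**
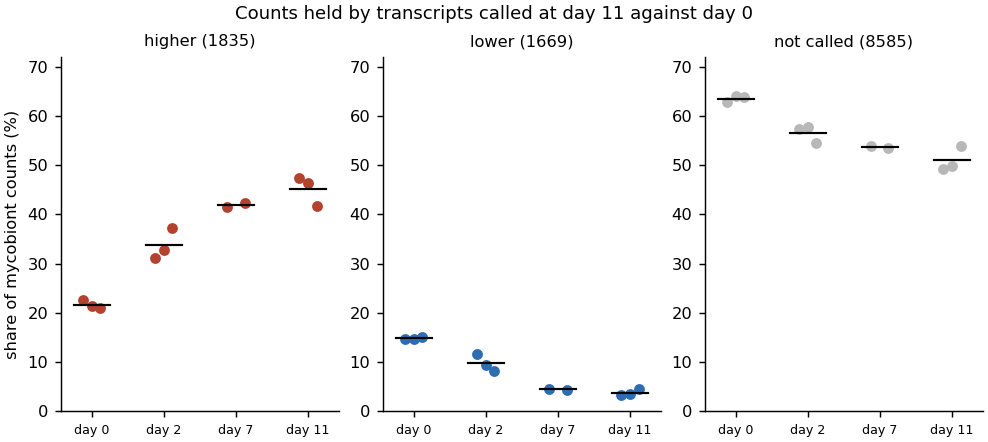
Share of mycobiont counts (vertical axis, percent) held by the transcripts called higher, called lower or not called at day 11 against day 0, by day of sampling, with 1 point per library and a bar at the mean. The higher group climbs at each day to a mean of 45.1% at day 11, while the lower group drops to 3.71%.

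Gains of share were concentrated in few transcripts and losses were spread over many. Between the day means, 3820 transcripts gained share and 10777 lost it, and each side summed to 26.7 percentage points. The shares of a library have a fixed sum, so that gains by some transcripts lower the share of all others. A loss of share is therefore not always a fall in level. The median log2 fold change over everything tested was -0.47 with library totals, which shares follow, and -0.02 with TMM. Of the gain, 50% fell to 73 transcripts, whereas 50% of the loss took 427. Leaving out each library in turn gave 59 to 87 transcripts for the gain and 392 to 484 for the loss. The 10 transcripts that gained most took 5.55 points, or 20.8% of the gain, and the 10 that lost most gave up 2.90 points, or 10.8% of the loss.

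The counts of each day 11 library were held in fewer transcripts than those of day 0, and so were the counts of days 2 and 7. The 10 most abundant transcripts of a library, taken anew in each, held 7.52%, 9.82% and 5.30% of its counts at day 11, against 5.05%, 3.92% and 4.43% at day 0. Every day 11 library lay above every day 0 library, by a mean difference of 3.08 percentage points (exact permutation p = 0.1, two-sided, which is the smallest that 3 against 3 libraries allow). Day 11 replicate 3 exceeded the highest day 0 library by little, and without day 11 replicate 2 the difference was 1.94 points. The 100 most abundant transcripts held 24.5%, 26.1% and 20.4% at day 11, against 17.9%, 16.1% and 16.4% at day 0 (difference 6.87 points, exact permutation p = 0.1). To reach 50% of the counts took 668, 601 and 783 transcripts at day 11, against 951, 1080 and 1035 at day 0. At day 2 the 10 most abundant held 7.72%, 5.69% and 7.42%, and 629, 801 and 686 transcripts made up 50% of the counts. At day 7 the 10 most abundant held 5.61% and 5.52%, and the number was 822 and 761. The ranges of days 2 and 11 overlap in both measures.

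**Figure D3:**
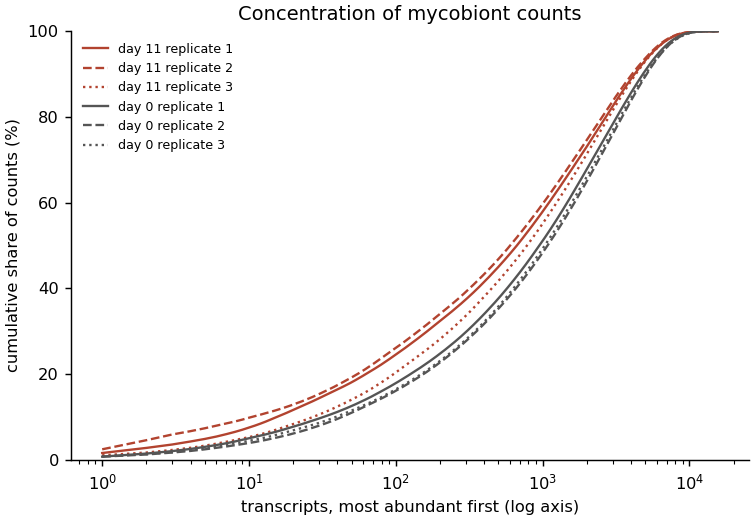
Cumulative share of mycobiont counts (vertical axis, percent) over transcripts ranked from the most abundant within each library (horizontal axis, log scale), for 3 day 11 libraries (red) and 3 day 0 libraries (grey). All day 11 curves run above all day 0 curves at 10, 100 and 1000 transcripts, and day 11 replicate 3 runs closest to day 0.

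The 10 most abundant transcripts of each day were mostly different ones, and longer lists were mostly shared. Of the 10 transcripts with the largest mean share at day 11, 8 were called higher than at day 0 and 2 were not called, and 7 of the 8 were also called with library totals. These 10 held a mean of 7.28% of the counts at day 11 and 2.17% at day 0. Being ranked by day 11 itself favours rises, and being ranked by day 0 favours falls. Of the 10 with the largest share at day 0, 4 were called lower, 1 higher and 5 not, and they held a mean of 3.46% at day 11 and 4.29% at day 0. The 2 lists had 3 transcripts in common, the lists of 100 had 51 and the lists of 1000 had 700. Among all tested transcripts, 15.2% were called higher and 13.8% lower. Of the 100 most abundant, 70 were called higher and none lower when ranked by day 11, and 23 higher and 20 lower when ranked by day 0. Ranking by days 2 and 7 gave 56 higher and 7 lower, and since these days were irradiated too, that ranking also favours rises. Ranking by days 0 and 11 together, which weighs both days alike but uses the values compared, gave 52 higher and 6 lower. With library totals as well, 36 of the 52 and all 6 were called.

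The transcript with the largest share at day 11 already ranked 2 at day 0. It held 1.59%, 2.45% and 1.05% of the counts at day 11, against 0.744%, 0.372% and 0.461% at day 0, with no overlap. The change was 2.14 on the log2 scale (SE 0.53, edgeR adjusted p = 0.0158), which did not pass the test against 2-fold (adjusted p = 0.122). It was high early, with 2.45%, 1.36% and 2.33% at day 2 and 1.22% and 0.488% at day 7. The transcript ranked 3 at day 11 had its highest mean at day 2 as well, with mean shares of 0.265%, 0.921%, 0.507% and 0.869% at days 0, 2, 7 and 11. The transcript ranked 5 held 0.510%, 0.778% and 0.264% at day 11, against 0.0569%, 0.0311% and 0.0337% at day 0 (log2 fold change 4.12, SE 0.65, edgeR adjusted p = 0.00253). A steadier rise was seen in the transcript ranked 7 at day 11. It held 0.501%, 0.516% and 0.432% at day 11, against 0.120%, 0.112% and 0.115% at day 0. The change was 2.51 on the log2 scale (SE 0.23, edgeR adjusted p = 0.000496). The day 11 libraries of this transcript lay close together and far above those of day 0.

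Of the 5 transcripts of the day 0 list that were not called, the one ranked 3 had the smallest fitted change. It held 0.340%, 0.241% and 0.39% at day 11, against 0.480%, 0.506% and 0.412% at day 0. After TMM scaling, which shares do not carry, this was -0.09 on the log2 scale (SE 0.25, edgeR adjusted p = 0.805). Those ranked 4, 6 and 8 at day 0 were called lower at day 11 and were still abundant at day 2. Their mean shares were 0.460%, 0.380% and 0.313% at day 0, 0.467%, 0.562% and 0.324% at day 2, then 0.0649%, 0.0820% and 0.0402% at day 7 and 0.0395%, 0.0417% and 0.0474% at day 11. Their log2 fold changes at day 11 were -3.13, -2.80 and -2.30, with edgeR adjusted p of 0.00580, 0.0146 and 0.00424.

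Individual transcripts were chosen among calls with a mean of at least 50 counts per library and no overlap between the days, which 1733 higher and 1296 lower transcripts met. Among these, transcript 1163291 gained the most share. It had 13263, 24654 and 6863 CPM (counts scaled to one library size after TMM) at day 11, against 187, 96.3 and 110 CPM at day 0. Every day 11 library lay far above every day 0 library. Its rank by share was 2 at day 11 and 1584 at day 0, with mean shares of 1.32% and 0.0159%. The change was 6.83 on the log2 scale (SE 0.96, edgeR adjusted p = 0.0017, and 0.00546 against 2-fold). The rise came after day 2: the levels were 79.2, 94.2 and 579 CPM at day 2 and 6318 and 7408 CPM at day 7. Day 11 was higher than day 2 by 5.89 on the log2 scale (SE 0.92, edgeR adjusted p = 0.00642), and no difference from day 7 was detected (adjusted p = 0.997).

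Transcript 388621 lost the most share, and was the most abundant at day 0. It had 335, 599 and 868 CPM at day 11, against 6167, 5848 and 6456 CPM at day 0, where the libraries lay close together. Its rank by share was 224 at day 11 and 1 at day 0. The change was -3.36 on the log2 scale (SE 0.39, edgeR adjusted p = 0.000887, and 0.00442 against 2-fold). The fall began early, with 2890, 1985 and 1882 CPM at day 2 and 610 and 370 CPM at day 7. Day 2 was already lower than day 0 (log2 fold change -1.45, SE 0.37, edgeR adjusted p = 0.0297).

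Transcript 545930 had the largest fall among those that met the conditions. It had 1.60, 0.668 and 0.795 CPM at day 11, from 16, 5 and 8 counts, against 1070, 732 and 144 CPM at day 0, from 15821, 13740 and 1612 counts. The day 0 libraries differed widely among themselves and all lay far above day 11. On the log2 scale it fell by 9.27 (SE 1.55, edgeR adjusted p = 0.00375, and 0.0122 against 2-fold). At day 2 it still had 359, 1124 and 32.8 CPM, and at day 7 it had 1.33 and 4.46 CPM. No difference between day 2 and day 0 was detected (log2 fold change -0.36, SE 1.04, adjusted p = 0.852).

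Transcript 1246404 had the largest rise under the same conditions, and it rested on 2 of the 3 day 11 libraries. It had 657, 8.55 and 711 CPM at day 11, from 6559, 64 and 7160 counts, against 0.406, 0.160 and 0 CPM at day 0, from 6, 3 and 0 counts. Day 11 replicate 2 lay above all day 0 libraries but far below the other day 11 libraries. The same was seen within day 2, at 1.36, 2.14 and 1080 CPM, and both day 7 libraries were low, at 3.27 and 1.55 CPM. The change was 11.10 on the log2 scale (SE 3.26, edgeR adjusted p = 0.033), and the test against 2-fold was not passed (adjusted p = 0.108). The call was lost without day 0 replicate 1, 2 or 3 (adjusted p of 0.0822, 0.101 and 0.102 in turn), without day 11 replicate 1 or 3 (0.0612 and 0.0577) and with no filter on low counts (0.0519). Over all 18 alternatives its adjusted p ran from 1.84e-06 to 0.102.

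**Figure D4:**
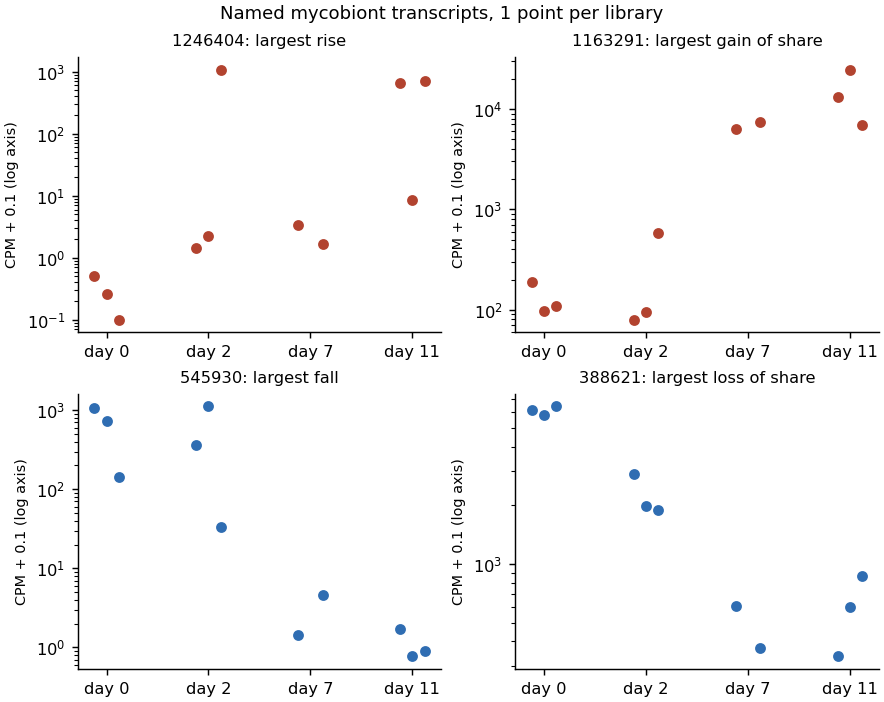
Level of the 4 named transcripts by day (vertical axis, CPM plus 0.1 on a log scale), with 1 point per library; each panel has its own vertical scale, with red for rises and blue for falls. Transcripts 1163291, 545930 and 388621 show separate groups of points at day 11 and day 0, while transcript 1246404 is low in day 11 replicate 2 and high in only 1 library of day 2.

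Such a split within a day was common among the largest rises. In the 10 largest it lay more often at days 2 and 7 than at day 11, and in wider groups of rises most often at day 11. Where it lay within day 11, the fold change describes some libraries of that day more than the day. Splits at days 2 and 7 enter the test through the shared estimate of the spread. The sources used here do not say how thalli were divided among the libraries, and the part of this in the splits was not tested. Of the 10 largest rises that met the conditions, with log2 fold changes of 8.99 to 11.10, 8 had a highest library at least 10-fold above the lowest on at least 1 of the 4 days, after adding 0.5 CPM to each. Among all tested transcripts this held for 4.31%, and for 41.0% of the 117 rises of at least 16-fold. In those 117 the split lay at day 2 in 19, at day 7 in 20 and at day 11 in 28. In the 268 rises beyond 2-fold it lay at day 2 in 0, at day 7 in 2 and at day 11 in 11. In the 10 largest rises the split lay at day 2 in 8, at day 7 in 6, at day 11 in 3 and at day 0 in 0. At day 0 their levels were at most 6.88 CPM, which leaves little room for such a split to show. The 8 with a split do not count as separate cases, since the same libraries recurred. Those ranked 2, 3, 7, 8 and 10 all split alike, with day 2 replicate 3 and day 7 replicate 1 high. Those ranked 1 and 5 were high in day 2 replicate 3 and day 11 replicates 1 and 3 alone. The one ranked 4 was highest in day 2 replicate 1 and day 7 replicate 2. Only 2 of the 10 largest rises passed the test against 2-fold, and these were the 2 without such a split. The rise ranked 6 was one of them, with 5303, 3247 and 2981 CPM at day 11, against 2.70, 5.96 and 6.88 CPM at day 0. It had 5.67, 32.6 and 7.51 CPM at day 2 and 1946 and 5217 CPM at day 7. The rise ranked 9 was the other, with 2478, 987 and 1421 CPM at day 11, against 3.72, 1.97 and 3.13 CPM at day 0. Both stood high in every library of days 7 and 11.

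The 10 largest falls that met the conditions had log2 fold changes of -9.27 to -6.25, and 9 of them passed the test against 2-fold. A split of 10-fold on at least 1 day was found in 4 of them, at day 0 in 2 and at day 2 in 2. The same held for 23.7% of the 59 falls of at least 16-fold. At day 11 the levels of the 10 largest falls were at most 4.97 CPM, which leaves little room for such a split to show. The split of 10-fold on any day was found in 1.32% of all 1669 transcripts called lower and in 3.32% of the 1835 called higher, so that most calls of either direction did not have it. The cut of 10-fold was chosen after the values had been seen.

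Few transcripts that were absent on 1 day were abundant on the other. A total of 186 transcripts had counts at day 11 and none at day 0, and 659 had counts at day 0 and none at day 11. These 2 numbers were not matched for depth, on which the detection of rare transcripts depends. The deepest of the 6 libraries was of day 0, with 14909202 counts. The minimum of 10 counts used next was chosen after the values had been seen. With no count at day 0 and at least 10 counts in every day 11 library there were 6, with 16 to 1236 counts per day 11 library. Set against a floor of 3 counts per day 0 library, they were at least 13.3-fold to 290-fold higher. Of these, 4 had at least 10 counts in replicate 2 of day 2 and replicate 2 of day 7 and in no other library of those days. The other 2 had them in replicate 3 of day 2 and replicate 1 of day 7 alone. The edgeR test called 1 of the 6 (adjusted p = 0.0461), and the others had adjusted p of 0.062 to 0.11.

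With no count at day 11 and at least 10 counts in every day 0 library there were 5, with 12 to 97 counts per day 0 library, at least 5.39-fold to 20.5-fold lower against the floor of 3 counts per day 11 library. All 5 were called lower. These 5 still had up to 47 counts per library at day 2 and at most 3 at day 7. Counts of 0 set limits for counting error only.

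Some transcripts were found almost solely in 1 library, for which the same limit holds. In day 11 replicate 2 there were 8 transcripts with at least 100 counts and 10 times more than in any other library, counting 1 extra there, a rule chosen after the values had been seen. They held 22640 counts, or 0.261% of the library, and the highest count of any of them elsewhere was 10. The 3 most abundant had 8507, 6597 and 4216 counts. Day 11 replicate 1 had 3 such transcripts, with 0.0369% of its counts, day 11 replicate 3 had none, and the day 0 libraries had 7, 3 and 0. Of the 8, 7 were removed by the expression filter. The remaining 1 had 2, 1921 and 1 counts at day 11, against 2, 1 and 1 at day 0. In raw counts, 2 of its 3 day 11 libraries did not exceed the highest of day 0. It was nevertheless called higher (log2 fold change 9.73, SE 2.93, edgeR adjusted p = 0.036). It did not pass the test against 2-fold (adjusted p = 0.119). In all, 56 of the 3504 calls had overlapping libraries, 35 higher and 21 lower. No overlap was found in 1800 of the higher and 1648 of the lower calls, while 24.2% of all tested transcripts lay wholly above and 24.2% wholly below day 0.

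The groups defined at day 11 could be followed in libraries on neither side of that comparison, by setting day 7 against day 2. The 328 transcripts that fell by more than 2-fold at day 11 had a median log2 fold change of -1.60 from day 7 over day 2. Of these, 104 (31.7%) were called lower at day 7 than at day 2 and none higher, against 3.33% and 2.23% of all tested transcripts. The 268 that rose by more than 2-fold had a median of 1.11, with 96 (35.8%) called higher and 12 (4.48%) lower. Transcripts not called at day 11 had a median of 0.02. The quartiles of the rising group ran from 0.05 to 3.02, and those of the falling group from -2.27 to -0.80, the wider range being that of the rises. All days shared 1 scaling and 1 estimate of the spread in the fit.

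**Figure D5:**
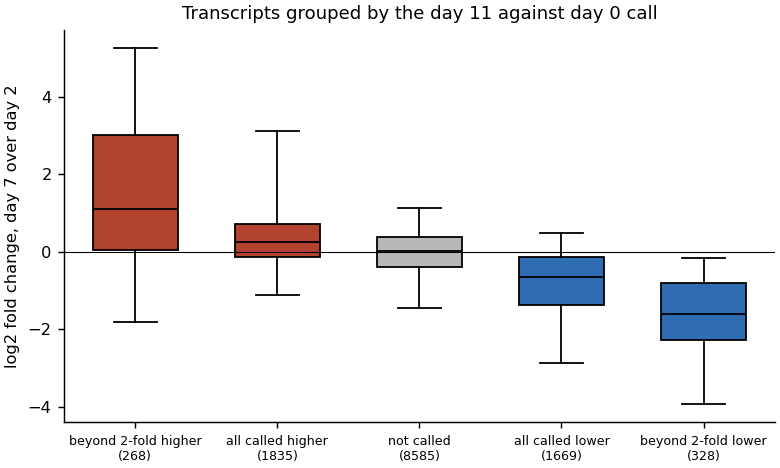
Log2 fold change of day 7 over day 2 (vertical axis) for transcripts grouped by their call at day 11 against day 0; boxes span the quartiles with a line at the median, and whiskers reach the 5th and 95th percentiles. The medians of the groups beyond 2-fold are 1.11 for rises and -1.60 for falls, against 0.02 for transcripts not called.

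Against the same day 0 libraries, the changes were larger at each later day. The median log2 fold change of the 268 rises beyond 2-fold was 1.40 at day 2, 2.84 at day 7 and 3.12 at day 11, and that of the 328 falls was -0.90, -2.36 and -2.80. The 3 comparisons share their day 0 libraries, and the transcripts were chosen on day 11. With day 11 set against day 7, edgeR called 0 of 12089 transcripts. An unadjusted edgeR p under 0.05 was reached by 622, close to the number expected if nothing had changed. The lowest adjusted p was 0.0501, and day 7 had only 2 libraries. The distance between libraries, as the root mean square difference in log2(CPM + 0.5) over the tested transcripts, was 0.953 to 1.19 between day 2 and day 0, 1.18 to 1.34 between day 7 and day 0 and 1.24 to 1.42 between day 11 and day 0. The ranges of days 7 and 11 overlap. It was 0.806 to 0.920 within day 11 and 0.713 to 0.851 within day 0. Day 11 libraries lay 1.00 to 1.35 from day 2 and 0.858 to 0.904 from day 7, the last within the range found inside day 11 itself. The median SD of log2 levels between replicates was 0.287 at day 11 and 0.267 at day 0.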

How the data were processed

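The authors deposited raw counts per transcript and library, and a table of reads kept after trimming and mapped to each partner, per the file headers. Per the submitters' processing notes the tools were FastQC 0.11.8 and Trimmomatic 0.39 with HISAT2, HTSeq 0.5.4 and edgeR. No source used here gives the genome build, gene models, strand setting or filters, so overlapping or near-identical transcripts are uncertain. The photobiont table was not used.

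Counts were fitted in R 4.3.3 with edgeR 4.0.16, using the default expression filter, TMM factors and a robust quasi-likelihood fit of all 11 libraries. The contrast was day 11 minus day 0, with Benjamini-Hochberg adjustment over all tested transcripts. The standard error is the absolute log2 fold change over the square root of F. Changes beyond 2-fold were tested with glmTreat. DESeq2 1.42.0, other scalings, filters and libraries were alternatives. Values per library were compared by exact permutation in SciPy 1.17.1. The biological coefficient of variation was 0.401. The fit was tested on simulated data, in which it missed most 2-fold and many 4-fold changes. Far fewer transcripts changed there than were called here, which makes the adjustment stricter, so that its rate of misses does not carry over. A transcript not called may still have changed. Libraries of a day differed far beyond counting noise, with a chi-square per degree of freedom of 53 or more, and none was a duplicate. Named transcripts are, among calls with a mean of 50 or more counts over the 6 libraries and no overlap between the days, the largest rise and fall and the largest gain and loss of share. The members, lists and tests were chosen with earlier results of these data known. Lists of genes by function could not be matched to the IDs.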

Additional observations from a re-analysis of the deposited data

Results flagged for a closer look

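For 3 named transcripts the change from day 0 differed between day 11 and day 2, as tested by setting day 11 directly against day 2 with edgeR and adjusting over all 12089 transcripts. The log2 fold change of day 11 over day 2 was 5.89 for transcript 1163291 (SE 0.92, adjusted p = 0.00642). It was -8.91 for transcript 545930 (SE 1.53, adjusted p = 0.00983) and -1.91 for transcript 388621 (SE 0.37, adjusted p = 0.0129). In each case every day 11 library lay on 1 side of every day 2 library. Groups of 3 libraries are too small for a test of single outlying libraries.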

How the results depend on the processing

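The count of changed transcripts was 3504. It ran from 2255 to 3721 when each of the 11 libraries was left out in turn, and was 2791 to 4250 under the other alternatives (factors by median of ratios, library totals, no or stricter filter, DESeq2, only the 6 libraries, replicate block). The count beyond 2-fold, 596, ran from 303 to 644 when single libraries were left out. With library totals it moved to 928, and the other alternatives gave 402 to 676. DESeq2 called 4185 transcripts, of which 3461 were among the 3504, and 564 beyond 2-fold. The share of higher calls was 49.1% with only the 6 libraries and 48.9% with the stricter filter of 50 counts in 3 libraries. Transcripts 1163291, 545930 and 388621 kept direction and call under all 18 alternatives, with adjusted p up to 0.0105, 0.0166 and 0.00435. Transcript 1246404 kept its direction under all 18 and lost its call under 6. The difference in the share of the 10 most abundant transcripts, 3.08 points, was 1.94 to 4.21 without single libraries and 2.45 to 3.09 otherwise. That of the 100 most abundant, 6.87 points, was 5.65 to 8.52 and 5.44 to 6.88. The smallest permutation p allowed was 0.1. Whether the replicate numbers pair the libraries was not settled, since 3 libraries per day are few. Deviations of same-numbered libraries of days 11 and 0 correlated at 0.0715, -0.0391 and 0.0989, and those of other pairs at -0.119 to 0.0562. Numbers 1 and 3 had their highest value with the same number, and number 2 had a higher value with another number. With the replicate number as a block, 2791 transcripts were called and 402 beyond 2-fold. At these depths falls to near 0 counts have imprecise fold changes.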
